A study of Rattus norvegicus with 61 samples.

Results

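The comparison covered striatal punches of male adolescent Sprague-Dawley rats that carried a 10% 4-OH-PCB52 implant (high) or an implant without the compound (sham), restricted to punches rich in striatal projection neurons. Libraries were selected on Ppp1r1b (Gene ID 360616 at NCBI), whose product inhibits a phosphatase in those neurons under the control of dopamine, at 500 CPM or more. CPM are counts scaled to a common library total. This kept 14 of the 16 high and sham striatal libraries, 7 high and 7 sham, of 61 libraries in the whole series. All rats received a subcutaneous polymer implant on postnatal day 28 and carried it for 28 days, so sham rats shared the surgery and the polymer. The 5 low (1%) and 8 medium (5%) striatal libraries that met the same rule entered the fit for the spread. Each library came from a separate rat and carries its group and animal number as its name, and the study asked which genes differ after exposure. The labels give the punch only as striatum, with no side or level.

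4-OH-PCB52 is a hydroxylated metabolite of a lower-chlorinated polychlorinated biphenyl. Biphenyls of this class are known to bind thyroid hormone carriers, to engage xenobiotic receptors and, for some congeners, to act on ryanodine receptor calcium channels. The striatum receives dopamine from the midbrain and glutamate from cortex and thalamus. Most of its neurons are inhibitory projection neurons, which fall into a direct pathway class (dopamine D1 receptor, substance P, dynorphin) and an indirect pathway class (dopamine D2 receptor, adenosine receptor, enkephalin).

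The Ppp1r1b level ran from 1389 to 6315 CPM of library total in the 7 high libraries kept and from 2827 to 4134 CPM in the 7 sham libraries kept. Just outside the threshold lay high 13, at 269 CPM, and sham 17, at 212 CPM. High 44 was the nearest library inside it at 1389 CPM, and the next was sham 34 at 2827 CPM. These values chose the members, so they and the transcripts that travel with Ppp1r1b describe the libraries and test nothing. Across 24 projection neuron transcripts the mean log2 CPM ran from 7.93 in high 44 to 9.40 in high 14, and from 8.54 in sham 48 to 9.33 in sham 32. The means were 6.16 in high 13 and 5.82 in sham 17. All 14 libraries kept carried projection neuron transcripts above both libraries left out. In bulk tissue, fewer cells of a type and less RNA per cell cannot be told apart.

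**Figure D1:**
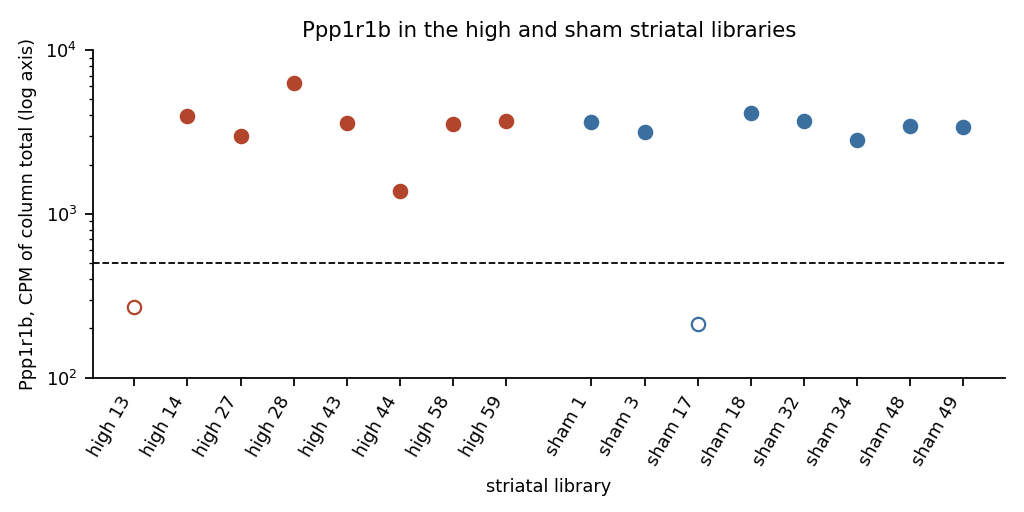
Ppp1r1b in CPM of the library total (log axis) in each of the 16 high and sham striatal libraries, high on the left, with the threshold of 500 CPM dashed and left-out libraries open. High 13 and sham 17 sit below the line at 269 and 212 CPM, and high 44 sits between them and the other 13.

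Some of the kept punches held transcripts of neighbouring tissue or blood. Over 12 transcripts of septum, pallidum and thalamus the mean log2 CPM ran from 2.42 to 3.61 in the 7 high libraries and from 2.86 in sham 32 to 5.18 in sham 48. Choroid plexus transcripts averaged 1.31 to 2.14 in high and 0.86 to 2.13 in 6 sham libraries, with 3.96 in sham 48. Over 4 blood transcripts the mean ran from -1.24 to 2.36 in high and from -0.96 in sham 32 to 4.93 in sham 48, with 2.97 in sham 18. High 44 led on 14 cortical excitatory neuron transcripts at 6.04, and sham 49 stood at 5.27, while the lowest values were 2.59 in high 14 and 2.55 in sham 18. Astrocyte transcripts averaged 7.97 to 8.65 in high and 8.11 to 8.38 in 6 sham libraries, with 7.57 in sham 18.

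Both groups also held libraries that stood apart as a whole. High 28, high 59, sham 48 and sham 49 were set apart on the first principal component, which took up 51.4% of the variance. These libraries had the highest means over 78 cytosolic ribosomal protein transcripts, at 9.51, 8.68, 8.45 and 8.93 log2 CPM in that order. The other libraries ran from 7.58 in high 58 to 7.96 in high 43. Totals ran from 6082404 to 8363820 reads in high and from 6181764 to 10236306 reads in sham. The biological coefficient of variation was 26.9%.

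**Figure D2:**
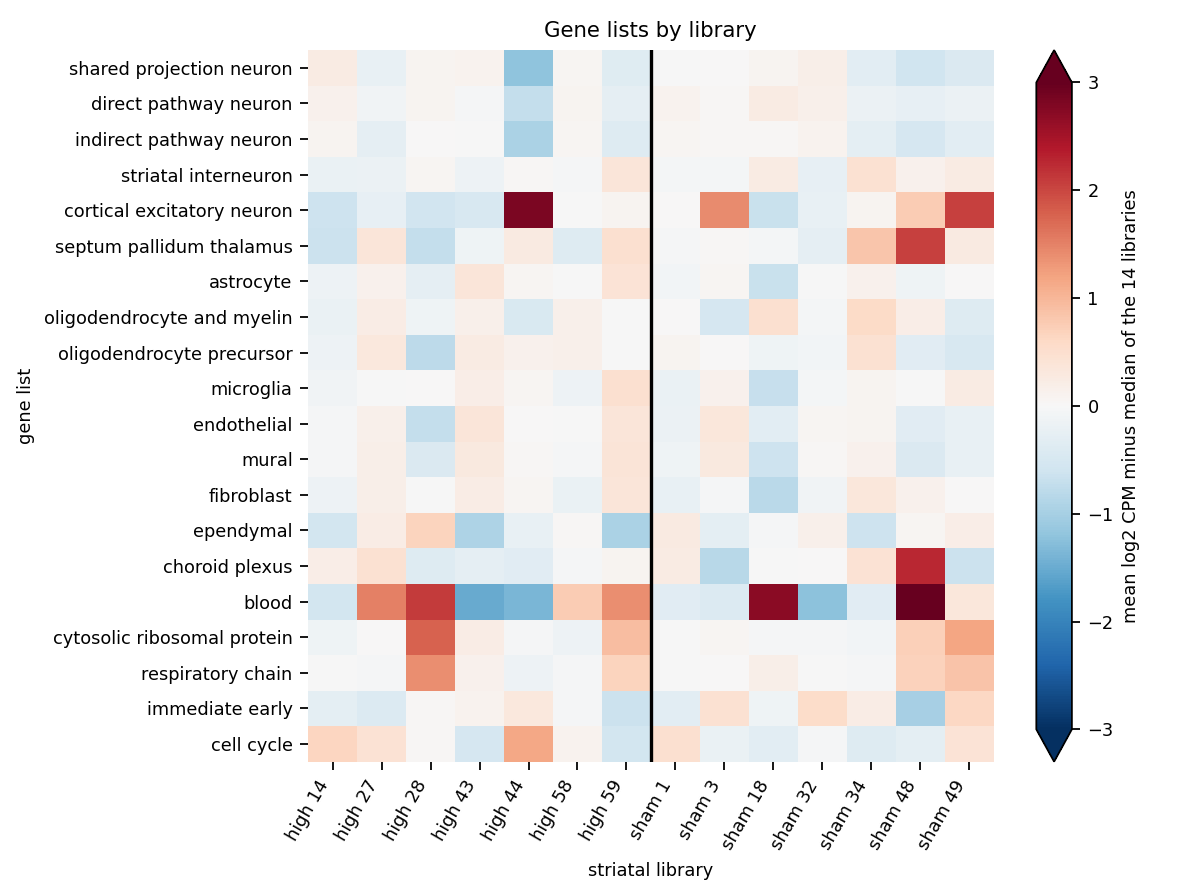
Mean log2 CPM over each gene list in each library, minus the median of the 14 libraries (colour, limited to 3 log2 units either way), with the 7 high libraries left of the line and the 7 sham libraries right of it. Single columns stand out: high 44 on cortical transcripts, sham 48 on thalamic, choroid plexus and blood transcripts, and high 28 on ribosomal transcripts.

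No gene differed between high and sham striatum past the threshold. Of 12243 genes tested with the quasi-likelihood test in edgeR, 0 passed an adjusted p of 0.05 (0% called), and the smallest adjusted p was 1.00. At an unadjusted p under 0.05 there were 98 genes (0.800%), where 612 would be reached by uniform p values. Of these, 47 had a positive fold change (0.384%) and 51 a negative one (0.417%). DESeq2 called 0 genes with 115 at an unadjusted p under 0.05, and limma-voom called 0 with 314. The 7 high values all lay above the 7 sham values in 2 genes, Mthfd2l and Actl6a (0.0163%), and all lay below them in 0 genes.

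Most genes had narrow intervals in this fit. The 95% interval of the log2 fold change lay within a 2-fold change in either direction for 11276 genes (92.1%) and within 1.5-fold for 8144 (66.5%). Among the 9384 genes with a mean of 10 CPM or more, the shares were 97.8% and 79.0%. The median half-width of the interval was 0.38 log2 units. These intervals do not cover dependence on a single library. That of Ttr, described below, ran from -4.90 to -0.84, yet its value was 0.35 without sham 48. Over all genes tested the median log2 fold change was 0.02, and 7108 genes (58.1%) had a positive value, so the counts over gene lists below are read beside that share. Leaving out each of the 14 libraries in turn, the number of positive values ran from 6102 of 12235 (without high 28) to 7281 of 12231 (without high 59). List medians that moved by over 1.5 times are followed by values from the same 14 fits.

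Every gene described from here on had an adjusted p of 1.00 in edgeR. Fold changes are log2, high over sham, with their standard error. Among the genes with the smallest p and a positive fold change, Gramd2b, a GRAM domain protein gene, ran from 75.7 to 120.5 CPM in high libraries (median 86.9) and from 47.99 to 93.4 CPM in sham libraries (median 65.3). All 7 high libraries exceeded the sham median, but the groups overlapped. The log2 fold change was 0.40 ± 0.13 (95% interval 0.14 to 0.67). Pawr encodes a pro-apoptotic leucine zipper protein. It ran from 2.43 to 4.47 CPM in high (median 3.40) and from 1.28 to 3.41 CPM in sham (median 2.12). Of the sham libraries, sham 3, sham 32 and sham 49 lay inside the high range. Its log2 fold change was 0.63 ± 0.20 (95% interval 0.21 to 1.05). Cmklr1, the chemerin receptor, ran from 4.32 to 8.88 CPM in high (median 5.91) and from 2.07 to 6.07 CPM in sham (median 3.86). The groups overlapped through sham 3 and sham 34, and the log2 fold change was 0.73 ± 0.24 (95% interval 0.23 to 1.23).

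In the 2 genes with no overlap the gap between the groups was narrow. Mthfd2l, a mitochondrial folate enzyme, ran from 2.84 to 4.19 CPM in high (median 3.02) and from 1.68 to 2.79 CPM in sham (median 2.21). The highest sham library, sham 34, lay just under the lowest high library, high 28, and the log2 fold change was 0.58 ± 0.20 (95% interval 0.16 to 1.00). Actl6a encodes an actin-related subunit of chromatin remodelling complexes. It ran from 25.3 to 32.7 CPM in high (median 27.4) and from 21.8 to 25.1 CPM in sham (median 23.7). The gap between the groups was again smaller than the range within either group, and the log2 fold change was 0.26 ± 0.09 (95% interval 0.072 to 0.45). With all striatal libraries kept, 0 genes were free of overlap, and sham 17 alone held 4.76 CPM of Mthfd2l.

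The other 7 leading genes with a positive fold change had values between 0.23 and 0.79. Rhbdf1, an inactive rhomboid protease gene, averaged 18.7 ± 3.54 CPM in high and 14.7 ± 2.15 CPM in sham (SD, 7 libraries each). Nfatc4, a calcineurin-regulated transcription factor gene, averaged 3.96 ± 0.758 CPM in high and 2.46 ± 0.877 CPM in sham. Cyp7b1, an oxysterol and neurosteroid hydroxylase gene, averaged 34.4 ± 5.87 CPM in high and 27.2 ± 4.89 CPM in sham. The groups overlapped for all 3. Cebpg, a partner of stress-responsive bZIP factors, had a log2 fold change of 0.23 ± 0.09 and Hspa12b, a heat shock protein family member of endothelium, one of 0.34 ± 0.13. Mmp19, a matrix metalloproteinase gene, stood at 0.59 ± 0.23 and Sinhcaf, a subunit of a histone deacetylase complex, at 0.79 ± 0.30. Sinhcaf split the high group itself, with 10.3, 11.4 and 11.3 CPM in high 14, 27 and 44 and 4.73 to 5.65 CPM in the other 4.

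Of the 12 genes with the smallest p and a negative fold change, 11 had their highest value in sham 48. Prkcd, a protein kinase C gene abundant in thalamic relay neurons, ran from 21.8 to 43.4 CPM in high (median 37.3) and from 28.7 to 327 CPM in sham (median 41.5). Sham 48 held the 327 CPM, sham 34 followed at 78.3 CPM, and the other 5 sham libraries lay inside or near the high range. The log2 fold change was -1.31 ± 0.39 with sham 48 and -0.38 ± 0.19 without it. Ntng1, the netrin-G1 gene of thalamocortical axons, ran from 5.68 to 12.5 CPM in high (median 8.21) and from 7.51 to 92.0 CPM in sham (median 10.5). The maximum was again sham 48, and the log2 fold change was -1.40 ± 0.42 with it and -0.42 without it. Slc17a6, the vesicular glutamate transporter of thalamic neurons, ran from 0 to 13.5 CPM in high (median 0.394) and from 0.733 to 168 CPM in sham (median 4.81). Its highest library was sham 48 as well.

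Further genes showed the same pattern. Ramp3, a receptor activity modifying protein gene, ran from 4.31 to 10.1 CPM in high, with at most 15.7 CPM in 6 sham libraries and 88.5 CPM in sham 48. Epn3, an epsin (51.1 CPM), Cpne9, a copine (109 CPM), Adra1b, the alpha-1B adrenoceptor (30.2 CPM), and Rgs16, a regulator of G protein signalling (34.1 CPM), had their sham maximum in that library too. Ttr, the thyroid hormone carrier made by choroid plexus, ran from 4.75 to 33.5 CPM in high and from 1.93 to 37.5 CPM in 6 sham libraries, with 969 CPM in sham 48. Its log2 fold change was -2.87 ± 0.99 with sham 48 and 0.35 without it. Without sham 48, edgeR called 0 genes, with 61 at an unadjusted p under 0.05, 43 positive and 18 negative.

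The other 3 leading genes with a negative fold change were less bound to that library. Srms, a non-receptor tyrosine kinase gene, averaged 0.741 ± 0.5683 CPM in high and 1.53 ± 0.458 CPM in sham (SD, 7 libraries each), with a log2 fold change of -1.02 ± 0.35, and -0.996 without sham 48. Slc16a13, a monocarboxylate transporter family member, ran from 7.93 to 11.8 CPM in high and from 8.78 to 18.5 CPM in sham. None of the 7 high libraries exceeded its sham median, and the log2 fold change was -0.39 ± 0.15, and -0.27 without sham 48. Fibin, a fin bud initiation factor homologue, stood at -0.54 ± 0.19 and at -0.37 without sham 48.

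**Figure D3:**
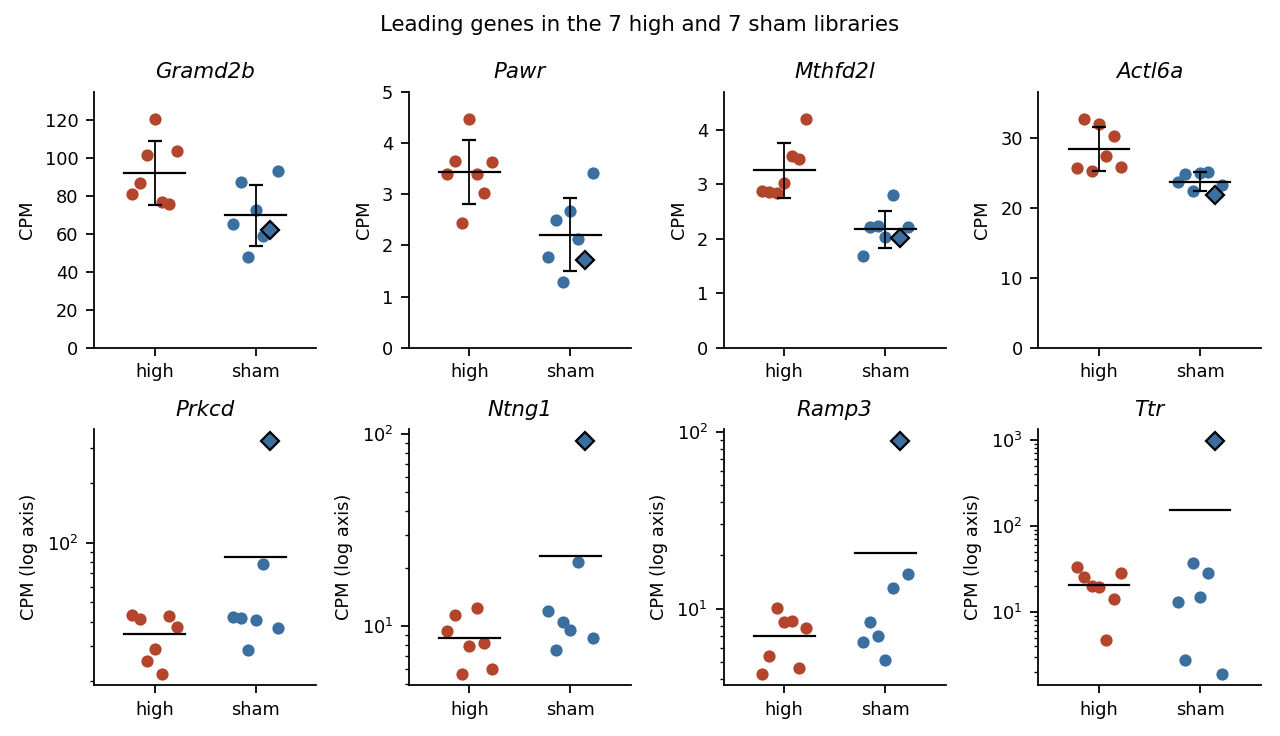
Levels of 4 genes with a positive (top row, linear axis from 0, bars mean ± SD) and 4 with a negative fold change (bottom row, log axis, line at the mean) in each of the 7 high (left) and 7 sham (right) libraries. The diamond is sham 48, which holds the highest value of Prkcd (327 CPM), Ntng1 (92.0), Ramp3 (88.5) and Ttr (969), while Mthfd2l and Actl6a show no overlap of the groups.

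**Figure D4:**
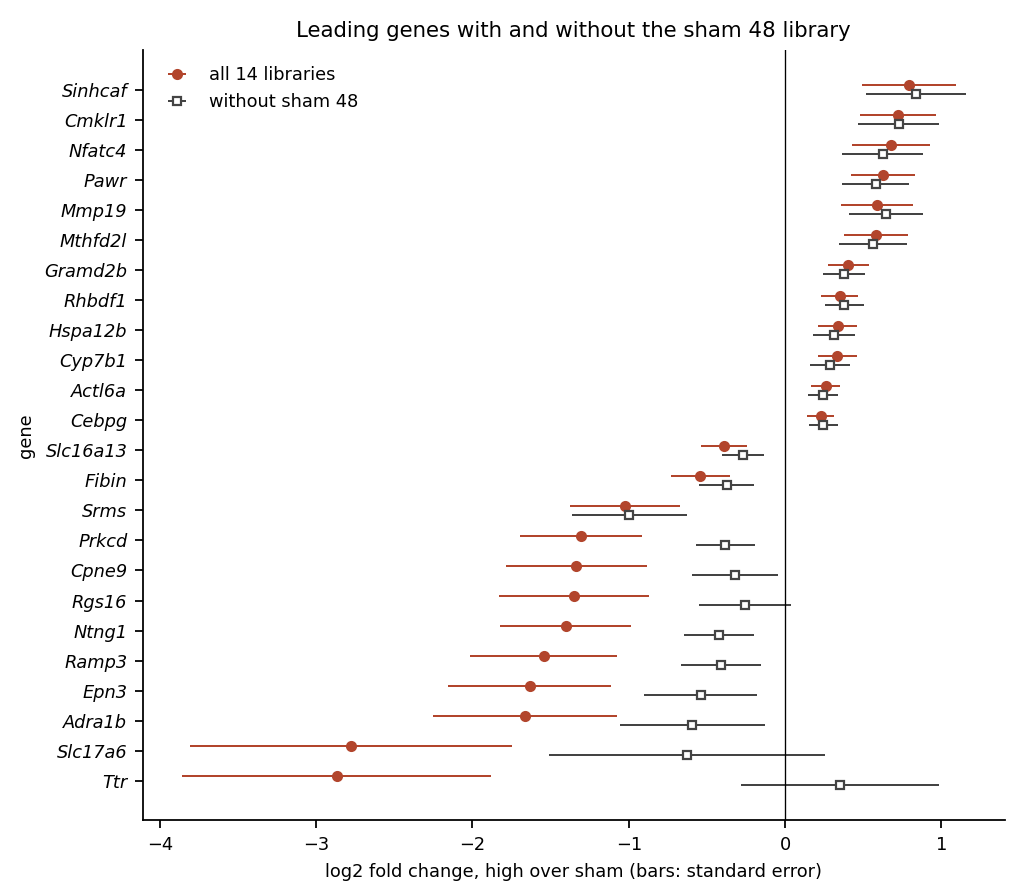
Log2 fold change, high over sham, with its standard error for the 24 genes of smallest unadjusted p in both directions, from all libraries (filled) and without sham 48 (open). The 12 positive values stay positive, whereas Prkcd goes to -0.38 and Ttr to 0.35 without that library.

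The libraries left out by the rule carried thalamic and choroid plexus transcripts as well. High 13 held 626 CPM of Prkcd, 279 CPM of Ntng1 and 489 CPM of Slc17a6, above every library kept. Sham 17 held 11927 CPM of Ttr and 238 CPM of Clic6, a chloride channel gene of choroid plexus. With both included the log2 fold change of Prkcd was 0.34 ± 0.72 and that of Slc17a6 was 0.92 ± 1.33, opposite in sign to the values with the rule, whereas that of Ttr was -6.17 ± 1.37 and that of Clic6 -3.78 ± 0.91, further below 0. For the 7 choroid plexus genes tested, the standard error with the rule was 0.559 times that without it at the median. Over 12224 genes in both fits the ratio was 1.05, so the estimates were no narrower with the rule for genes at the median.

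Projection neuron identity transcripts had wide, overlapping ranges in high. Drd1 ran from 164 to 463 CPM in high (median 342) and from 259 to 473 CPM in sham (median 355). Drd2 ran from 128 to 549 CPM in high (median 344) and from 261 to 355 CPM in sham (median 329). Adora2a ran from 219 to 1282 CPM in high (median 647) and from 489 to 660 CPM in sham (median 625). In each of these the lowest library of all was high 44, and for Drd2 and Adora2a the highest was high 28. Penk, the enkephalin precursor, had medians of 1592 CPM in high and 1510 CPM in sham, Tac1, the substance P precursor, 310 and 305 CPM, and Pdyn, the dynorphin precursor, 238 and 255 CPM. As the rule used a transcript of the same cells, these levels are given without a test.

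**Figure D5:**
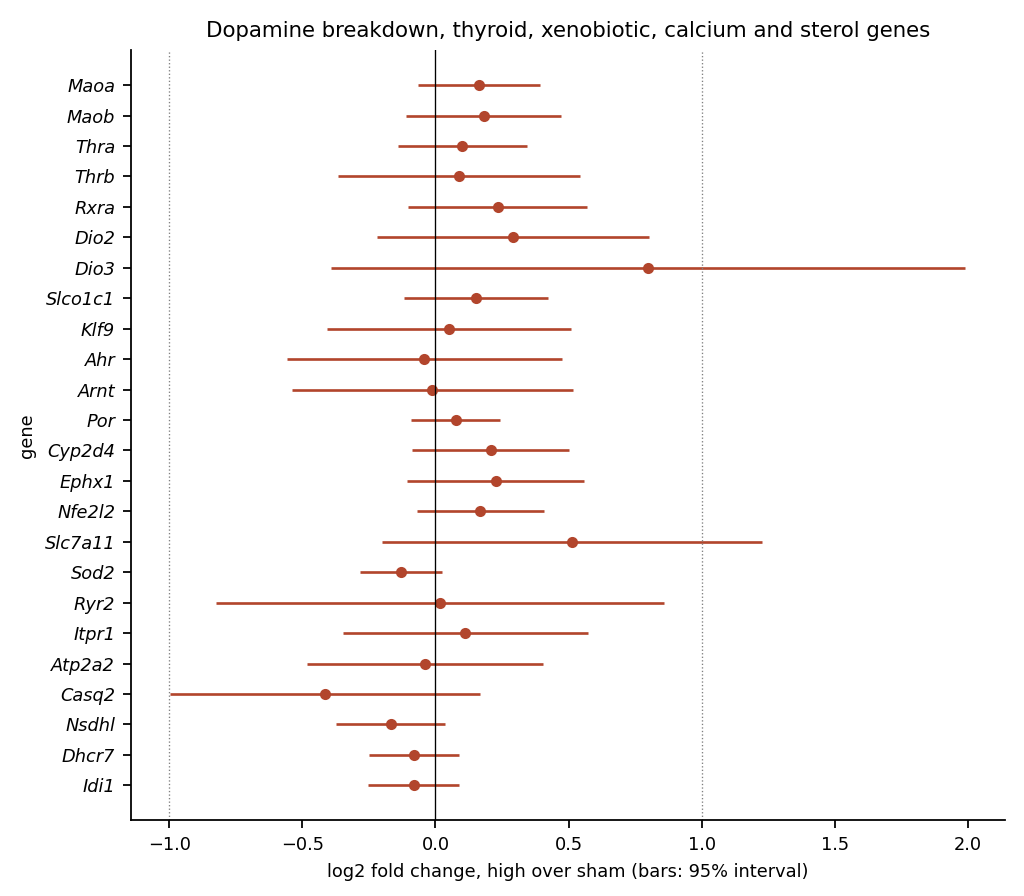
Log2 fold change, high over sham, with its 95% interval for genes of dopamine breakdown, thyroid hormone, xenobiotic and antioxidant response, calcium stores and sterol synthesis. All 24 intervals cross 0, and dotted lines mark a 2-fold change in either direction.

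The dopamine signalling list holds Ppp1r1b and other projection neuron transcripts, so no count over it is given. Of its members outside those neurons, Maoa, a monoamine oxidase gene that breaks down dopamine, averaged 68.9 ± 10.0 CPM in high and 61.4 ± 10.4 CPM in sham, a log2 fold change of 0.16 ± 0.11 (SD over 7 libraries each, then standard error). Maob, its glial counterpart, averaged 110 ± 14.6 CPM in high and 96.8 ± 15.0 CPM in sham. Neither difference exceeded the spread between libraries. Interneuron transcripts were sparse: of 19 tested, 13 were positive, 6 negative and only Calb2, the calretinin gene, reached an unadjusted p under 0.05, at -1.26 ± 0.57 with sham 48 (85.6 CPM) and -0.06 without it. The median of the list, 0.09, ran from -0.032 (without high 59) to 0.15 (without high 58).

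Thyroid hormone genes were close to level. Of 25 tested, 18 were positive and 7 negative, with a median log2 fold change of 0.06, and Ttr alone reached an unadjusted p under 0.05. The median ran from 0.034 (without high 43) to 0.095 (without sham 32). Thra, the main brain receptor, averaged 684 ± 112 CPM in high and 638 ± 102 CPM in sham, with a 95% interval from -0.14 to 0.34. For Thrb, the beta receptor, the interval ran from -0.37 to 0.54. Slco1c1, a thyroxine transporter gene, had an interval from -0.12 to 0.42. Dio2, the activating deiodinase of astrocytes, ran from 24.3 to 81.8 CPM in high (median 50.3) and from 24.1 to 71.1 CPM in sham (median 43.04), so the groups covered nearly the same range. Dio3, the inactivating deiodinase, was near its detection limit at 0 to 2.85 CPM in high and 0.159 to 1.57 CPM in sham. Klf9, a direct target of the hormone, averaged 145 ± 39.1 CPM in high and 140 ± 23.3 CPM in sham.

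Xenobiotic response genes had intervals of mixed width. The 95% interval lay within a 1.5-fold change for 70% of them, beside 66.5% of all genes and 79.0% of those with a mean of 10 CPM or more. Of 20 tested, 14 were positive and 6 negative, with a median of 0.06 and none at an unadjusted p under 0.05. The median ran from 0.046 (without sham 18) to 0.11 (without sham 34). Por, the electron donor of cytochromes P450, averaged 123 ± 8.05 CPM in high and 117 ± 10.4 CPM in sham, with an interval from -0.09 to 0.24. Nr1i3, the constitutive androstane receptor, had an interval from -0.14 to 0.26. Ahr, the dioxin receptor, averaged 7.85 ± 3.05 CPM in high and 8.10 ± 2.21 CPM in sham, and its partner Arnt 28.2 ± 9.59 and 28.4 ± 7.45 CPM. Cyp2d4, a brain cytochrome P450, stood at 0.21 ± 0.14. Ephx1, an epoxide hydrolase gene, stood at 0.23 ± 0.16, with its highest value, 71.8 CPM, in high 28 and the other 6 high libraries between 28.5 and 42.3 CPM.

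In the antioxidant list headed by Nfe2l2, 20 of 26 genes were positive with a median of 0.08. Without high 28 the count was 7 of 26 and the median -0.073, and without sham 49 the median was 0.19. Nfe2l2 averaged 37.8 ± 5.27 CPM in high and 33.6 ± 6.21 CPM in sham. Slc7a11, the cystine transporter, stood at 0.51 ± 0.35, with a lowest high value of 24.5 CPM in high 28 and 76.6 to 149 CPM in the other 6. Sod2, the mitochondrial superoxide dismutase, stood at -0.13 ± 0.08. Calcium store genes were split 15 positive to 7 negative of 22 with a median of 0.05, which ran from 0.014 (without high 43) to 0.074 (without high 28). Ryr2, the main brain ryanodine receptor, ran from 44.5 to 199 CPM in high (median 132) and from 43.4 to 198 CPM in sham (median 147). Its low values were high 28, high 59, sham 48 and sham 49, the libraries set apart on the leading component, and its interval was as wide as -0.82 to 0.86. Itpr1, an inositol trisphosphate receptor gene, and Atp2a2, the reticulum calcium pump, had intervals from -0.35 to 0.57 and from -0.48 to 0.40.

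Sterol synthesis genes were tightly bounded. For 20 of 21 the 95% interval lay within a 1.5-fold change, and library means ran from 5.86 to 5.95 log2 CPM in high and from 5.86 to 6.07 in sham. Of the 21, 5 were positive and 16 negative, with a median of -0.04, beside 58.1% positive over all genes. The median ran from -0.080 (without high 28) to 0.0019 (without sham 34). Nsdhl, Dhcr7 and Idi1, the members with the smallest p, stood at -0.17 ± 0.10, -0.08 ± 0.08 and -0.08 ± 0.08. Of 37 proteasome genes 34 were bounded in the same way (91.9%), and of 24 endoplasmic reticulum stress genes 20 (83.3%). The share was 66.5% over all genes and 79.0% among those with a mean of 10 CPM or more, so the last list was near its background. Heat shock genes were split 5 positive to 11 negative of 16 (median -0.04), and 25 interferon genes 15 to 10 (median 0.06). These medians ran from -0.072 (without sham 49) to -0.020 (without high 14) and from -0.020 (without high 59) to 0.14 (without high 58).

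Most astrocyte, microglial, endothelial and mural cell genes had positive fold changes, with no member at an unadjusted p under 0.05. Positive fold changes were seen in 18 of 19 astrocyte genes (median 0.18), 18 of 19 microglial genes (0.16), 19 of 19 endothelial genes (0.13) and 14 of 14 mural cell genes (0.22), beside 58.1% and 0.02 over all genes. Gja1, the astrocyte connexin, averaged 591 ± 117 CPM in high and 492 ± 89.3 CPM in sham, a log2 fold change of 0.26 ± 0.15. Slc1a3, an astrocyte glutamate transporter, ran from 625 to 1307 CPM in high and from 532 to 1176 CPM in sham. P2ry12, a purine receptor of resting microglia, ran from 18.04 to 24.9 CPM in high and from 7.33 to 22.7 CPM in sham, with the low value in sham 18. Without sham 18 the medians were 0.09 for astrocytes, 0.08 for microglia, 0.08 for endothelium and 0.13 for mural cells, and without high 59 they were 0.053 for microglia and 0.055 for endothelium. The part of sham 18 in the remaining values was not tested.

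Myelin transcripts of oligodendrocytes had small negative values. All 22 myelin genes had a negative fold change, the median being -0.10 and none at an unadjusted p under 0.05. Mbp, myelin basic protein, ran from 7629 to 13767 CPM in high (median 11221) and from 8042 to 17588 CPM in sham (median 10493), so the high median was the greater although the fold change of means was -0.13 ± 0.18. The maximum was sham 34. Without sham 18 the count was 17 of 22 and the median -0.03, and without sham 48 and high 44 it was 14 of 22. Leaving out each library, the median ran from -0.20 (without sham 3) to -0.0090 (without sham 34). Of 11 oligodendrocyte precursor genes, 6 were positive and 5 negative, with a median of 0.02. That median ran from -0.056 (without sham 32) to 0.10 (without high 14).

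Activity-regulated genes had negative values in most members. Of 27 immediate early genes, 23 were negative and 4 positive, with a median of -0.24. Dusp1, a phosphatase induced by activity and stress, was the only one at an unadjusted p under 0.05. It ran from 22.8 to 69.5 CPM in high (median 37.04) and from 27.5 to 97.1 CPM in sham (median 46.3), and 1 of 7 high libraries, high 28, lay above the sham median. The log2 fold change was -0.55 ± 0.24 (95% interval -1.05 to -0.054). Library means of the list ran from 4.20 to 5.15 log2 CPM in high and from 3.86 to 5.47 in sham, so sham held both the lowest library, sham 48, and the highest, sham 49. Without sham 48 the count was 25 of 27 and the median -0.36, and without sham 49 the median was -0.075 and Dusp1 stood at -0.36. Time of day and handling at dissection are not given in the labels. Bmal1, a core clock gene, averaged 37.8 ± 7.22 CPM in high and 45.1 ± 7.18 CPM in sham, and none of the 7 high libraries exceeded the sham median (log2 fold change -0.26 ± 0.14). Most other clock genes went the other way. Of 16 tested, 12 were positive and 4 negative, with a median of 0.08, beside 58.1% positive over all genes.

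Genes of cell division and immature neurons were positive in 17 of 19 members, with a median of 0.36. Mcm2, a replication helicase subunit, ran from 8.11 to 13.96 CPM in high (median 9.86) and from 5.90 to 9.49 CPM in sham (median 7.30). All 7 high libraries exceeded the sham median, and the log2 fold change was 0.45 ± 0.19 (95% interval 0.059 to 0.85). Dcx, the doublecortin gene of migrating neuroblasts, ran from 9.05 to 115 CPM in high (median 33.6) and from 7.16 to 34.6 CPM in sham (median 22.8). High 44 held the 115 CPM, together with the highest mean of the list, 4.27 log2 CPM, and the cortical transcripts described above. Without high 44 the count was 15 of 19 and the median 0.12.

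Among glucocorticoid response genes, 15 of 18 were positive with a median of 0.05, and 2 reached an unadjusted p under 0.05 in opposite directions. The count was 9 of 18 without sham 48 and 8 of 18 without high 58, and the median ran from -0.016 (without high 58) to 0.12 (without high 44). Zbtb16, a zinc finger gene induced by glucocorticoids, ran from 1.35 to 19.2 CPM in high (median 4.34) and from 0.593 to 6.07 CPM in sham (median 3.13). Its high values came from high 44 and high 58, at 16.1 and 19.2 CPM, and the other 5 high libraries lay inside the sham range (log2 fold change 1.25 ± 0.59, and 0.81 without high 58). Cdkn1a, a cell cycle inhibitor gene, ran from 3.27 to 11.4 CPM in high (median 8.65) and from 8.76 to 21.6 CPM in sham (median 10.5). Its log2 fold change was -0.59 ± 0.22 (95% interval -1.05 to -0.14), and -0.39 without sham 48. Of 18 inflammation genes, 16 were positive with a median of 0.19, which was 0.086 without sham 18 and 0.094 without sham 48 and high 44. Tlr4, a pattern recognition receptor gene, averaged 2.38 ± 0.749 CPM in high and 1.68 ± 0.996 CPM in sham, and 0 of the 18 reached an unadjusted p under 0.05.

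Receptor and synapse genes had small negative medians that single libraries moved, with -0.03 over 12 GABA-A receptor subunits, -0.03 over 24 glutamate receptor genes, -0.07 over 24 synaptic vesicle genes and -0.07 over 42 potassium channel genes. For GABA-A receptor subunits the median ran from -0.16 (without high 14) to 0.13 (without high 28), and for glutamate receptor genes from -0.10 (without sham 49) to 0.11 (without high 28). For synaptic vesicle genes it ran from -0.14 (without high 44) to 0.033 (without high 28), and for potassium channel genes from -0.11 (without sham 49) to -0.0070 (without sham 32). In the last list Kcnh2, a repolarising channel gene, stood at -0.36 ± 0.15 (95% interval -0.66 to -0.054), and at -0.21 without sham 48, with its highest values in sham 48 (88.3 CPM) and sham 34 (73.0 CPM). Counts over housekeeping complexes depended on libraries set apart on the first principal component. Of 78 cytosolic ribosomal protein genes 76 were positive with a median of 0.21, but without high 28 only 1 was, with a median of -0.16, and without sham 49 the median was 0.42. For 77 respiratory chain genes the counts were 64 with high 28 and 3 without it.

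The lower loadings were set beside these values in the same fit, and they share the sham libraries, so they are no independent check. Gramd2b stood at a log2 fold change of 0.28 in low, 0.20 in medium and 0.40 in high, and Actl6a at 0.23, 0.25 and 0.26. Prkcd stood at -1.40, -1.15 and -1.31, all against the sham group that holds sham 48. Low called 0 genes with 581 at an unadjusted p under 0.05, and medium called 0 with 285. The cerebellar high and sham libraries carry animal numbers shared with the striatal ones, so they are no separate set of rats. In cerebellum, high called 0 of 11946 genes against sham (smallest adjusted p 0.42), with 1394 at an unadjusted p under 0.05 in edgeR. Of these, 1256 had a positive fold change in cerebellum and 138 a negative one. The cerebellar fit used all 31 libraries of that region, with no rule on their content, unlike the striatal fit. Ttr stood there at 7.07 ± 1.86 and Rps21, a ribosomal protein gene, at 2.11 ± 0.77. The part of single libraries in the cerebellar counts was not tested. In that region Gramd2b stood at 0.22, Actl6a at 0.01, Mthfd2l at 0.98 and Pawr at -0.92. The sign of Pawr was opposite to that in striatum, which was not tested as a difference.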

How the data were processed

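The authors deposited read counts per gene as whole numbers, with a table for each region. The submitters' processing notes list FastQC, HISAT2 and rn6. How reads were counted, with which annotation and strand setting, is not stated in the labels. The labels' protocols give poly(A) enrichment and ribosomal RNA depletion as alternatives, not by library. No coordinates were used. Symbols were found for 14163 of 14231 striatal genes by their NCBI identifier, and each gene had at least 10 reads over the 30 striatal libraries.

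Trimmed mean of M values factors and filterByExpr (minimum count 10) preceded the robust quasi-likelihood fit in edgeR 4.0.16 (limma 3.58.1, DESeq2 1.42.0, R 4.3.3) of 27 striatal libraries in 4 exposure groups, two-sided, with Benjamini-Hochberg adjustment over all genes tested. CPM carry these factors, except Ppp1r1b under the rule. List means average log2 CPM (prior count 2). Standard errors are the absolute log2 fold change over the square root of the F statistic, and intervals multiply them by a t quantile. The fit was also run on simulated counts, drawn separately for each gene and library. These held no libraries set apart as a whole, so that run cannot vouch for the fit where such libraries matter. P values measure the spread between separate rats.

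The members, the 38 gene lists and the tests were chosen with earlier results of these data known. Named genes were those past the threshold (at most 15 per direction, filled to 12 by smallest p), up to 10 without overlap, up to 3 per list, members of 5 lists by role, and markers; 1 gene is not reported here. Alternatives were other size factors, tools and filters, high and sham alone, a term for the run of 15 animal numbers (the labels give 4 cohorts but no cohort per rat), other rules on Ppp1r1b, and leaving out each library. After seeing the data, 3 more were added: without high 28, high 59, sham 48 and sham 49, without sham 48 and high 44, and a ribosomal covariate. The ribosomal protein list was corrected after a first run, to leave out kinases whose symbols begin alike.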

Additional observations from a re-analysis of the deposited data

Results flagged for a closer look

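Of 256 groups of 7 values tested (90 named genes and 38 gene lists, high and sham each), 27 held a library far from the other 6, where chance flags about 1 in 20 groups, or 12.8 in all. The flags fell on high 28 (9), sham 48 (7), high 44 (5), sham 18 (5) and sham 34 (1). Genes and lists share transcripts and libraries, so the flags are not independent, and no cause was tested. Flags on Gng7, Adora2a and the shared projection neuron list concern transcripts that travel with Ppp1r1b, so they describe the libraries and test nothing.

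High 28 was the lowest high library for Csf1r, a microglial receptor gene, at 77.7 CPM against 163 to 210 CPM in the other 6, and for Slc7a11 at 24.5 CPM and Maoa at 49.1 CPM. It was the highest for Ephx1 at 71.8 CPM and Nsdhl at 34.5 CPM. Its list means were lowest for thyroid hormone genes (5.76 log2 CPM), endothelium (4.84) and inflammation (2.64), and highest for the proteasome (6.79).

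Sham 48 was the highest sham library for Prkcd at 327 CPM, Ntng1 at 92.0 CPM, Ramp3 at 88.5 CPM, Cdkn1a at 21.6 CPM and Nsdhl at 32.8 CPM, and for the choroid plexus list at 3.96 log2 CPM. It was the lowest for Dcx, at 7.16 CPM. High 44 was the highest high library for Neurod6, a cortical excitatory neuron gene, at 31 CPM against 0.261 to 1.76 CPM in the other 6, and for the cortical list at 6.04 log2 CPM. It was the lowest for Gng7, a striatal G protein subunit, at 1121 CPM, for Sod2 at 125 CPM and for the shared projection neuron list at 7.93 log2 CPM.

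Sham 18 was the lowest sham library for Glul, the astrocyte glutamine synthetase gene, at 949 CPM, Cyp2d4 at 21.7 CPM, Rxra, a retinoid X receptor gene, at 11.5 CPM, Tnf, which had 0 reads there, and the astrocyte list at 7.57 log2 CPM. Sham 34 was the lowest for Adora2a, at 489 CPM.

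The libraries left out by the rule held transcripts of other tissue above all 7 sham libraries. Sham 17 stood at 7.86 log2 CPM over choroid plexus genes, 5.61 over fibroblast genes, 5.36 over cortical genes and 4.33 over ependymal genes. For septum, pallidum and thalamus genes, high 13 stood at 5.52 and sham 17 at 5.45.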

How the results depend on the processing

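The count of 0 genes past the threshold held under every alternative run. The count at an unadjusted p under 0.05 was 98, and it was 314 with limma-voom, 236 without a filter, 59 with high and sham alone, 231 with Ppp1r1b at 2000 CPM or more (which drops high 44), 256 without the libraries apart on ribosomal transcripts (high 28, sham 49 and medium 41), 179 without sham 48 and high 44, and 465 with the ribosomal covariate. Leaving out each library in turn gave 61 (sham 48) to 232 (high 28), with 163 without sham 3, 174 without sham 49 and 231 without high 44. Genes without overlap numbered 2, and 1 with a mean CPM of 1 or more, 1 with high and sham alone, 0 without the rule, 4 with Ppp1r1b at 2000 CPM, 8 without the libraries apart on ribosomal transcripts, 46 without high 28, high 59, sham 48 and sham 49 (5 libraries a group), 6 without sham 48 and high 44, and 2 to 5 leaving out each library (most without high 27). Groups of fewer libraries separate more easily, so the counts without overlap cannot be compared across group sizes. The cause of these moves was not tested. No paired analysis was possible because high and sham libraries came from different rats.

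Of 1161 values of 90 named genes under other alternatives, 63 in 28 genes turned sign, and 0 passed the threshold. Values of Ppp1r1b and of the projection neuron transcripts that travel with it describe the libraries the rule chose and test nothing. With DESeq2, Ttr was 0.31. With limma-voom, Ttr was 0.62, Ppp1r1b -0.093, Drd2 -0.078, Adora2a -0.13, Penk -0.13, Tac1 -0.24, Calb2 0.0081, Pvalb 0.21, Mbp 0.010, Enpp2 0.027, Clic6 0.13, Igfbp2 0.051, Neurod6 -0.93, Ahr 0.24, Arnt 0.039 and Ryr2 -0.013. With the run term, Neurod6 was -0.082 and Arnt 0.016. Without the rule, Prkcd was 0.34, Ntng1 0.78, Ramp3 0.046, Cpne9 0.40, Adra1b 0.39, Rgs16 0.64, Slc17a6 0.92, Neurod6 -1.51, Ahr 0.24, Ryr2 -0.25, Atp2a2 0.016, Casq2 0.12 and Kcnh2 0.0020. At 2000 CPM, Drd1 was 0.075, Neurod6 -2.29 and Ryr2 -0.12. Without the libraries apart on ribosomal transcripts, Ppp1r1b was -0.12, Drd2 -0.067, Adora2a -0.12, Penk -0.17, Tac1 -0.20 and Arnt 0.046. Without high 28, high 59, sham 48 and sham 49, Ttr was 0.030, Ppp1r1b -0.17, Drd2 -0.13, Adora2a -0.17, Penk -0.20, Tac1 -0.30, Clic6 0.045, Ahr 0.16, Arnt 0.039 and Ryr2 -0.015. Without sham 48 and high 44, Ttr was 0.53, Drd1 0.012, Neurod6 -2.40, Thrb -0.067 and Ryr2 -0.27. With the ribosomal covariate, Ppp1r1b was -0.011, Adora2a -0.027, Penk -0.069, Tac1 -0.068, Neurod6 -0.048, Arnt 0.042 and Atp2a2 0.052. Leaving out each library, the ranges that crossed 0 were -0.033 to 0.19 for Thrb, -0.13 to 0.16 for Ryr2, -0.12 to 0.27 for Ppp1r1b, -0.048 to 0.25 for Drd2, -0.14 to 0.26 for Adora2a, -0.15 to 0.17 for Penk, -0.19 to 0.21 for Tac1, -0.21 to 0.069 for Ahr, -0.099 to 0.12 for Arnt, -0.14 to 0.055 for Atp2a2, -0.052 to 0.54 for Rps21, -0.13 to 0.075 for Drd1, -2.29 to 0.97 for Neurod6, -0.047 to 0.13 for Klf9 and -3.09 to 0.35 for Ttr.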
